A study of Homo sapiens with 12 samples.

Results

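The small subunit of the cytosolic ribosome is built from an rRNA and a set of proteins, and 28 genes of such proteins were followed here through ribosome profiling (Ribo-seq) of HCT116, an established line of human colorectal cancer cells. The members were the rows of the deposited table whose symbol is RPSA, RPS2, RPS3, RPS3A, RPS4X, RPS6, RPS7, RPS9, RPS10, RPS12, RPS13, RPS14, RPS15, RPS15A, RPS16, RPS18, RPS19, RPS20, RPS21, RPS23, RPS24, RPS25, RPS26, RPS27, RPS27A, RPS28, RPS29 or FAU, 28 of the 15798 genes listed. The list was set by symbol and not by any measured value, but earlier results of these data were known when it was chosen. The study asked whether inhibition of the kinases MEK1/2, which activate ERK, changes the translation of particular mRNAs. Cells received 100 nM trametinib, a MEK1/2 inhibitor (MEKi), or its solvent DMSO for 24 h, with 3 biological replicates per treatment. All dishes, DMSO dishes included, were given cycloheximide just before lysis, which holds ribosomes on the mRNA. Each lysate gave input RNA, fragmented by alkali as a measure of mRNA abundance, and ribosome footprints, the mRNA stretches that monosomes protect from RNase I. The 12 libraries therefore form the groups DMSO input, trametinib input, DMSO footprints and trametinib footprints, with 3 libraries in each.

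Proteins of the small subunit line the channel through which mRNA passes and frame the decoding center, and most of them are required for the subunit to be assembled at all. Their mRNAs belong to the 5′TOP class, which begins with a C followed by an unbroken run of pyrimidines. Ribosomes are recruited to this class under the control of the kinase mTOR, and the protein LARP1 holds the class back when mTOR is inactive.

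The start of the mRNA was therefore looked at first. Promoter sequences from RefSeq (GRCh38.p14, 250 bases before to 50 bases after the annotated start) were matched by symbol to 25 of the 28 members, and no entry was matched for RPS2, RPS15A and RPS20. A C at the first transcribed base with at least 4 C or T directly after it was present in 19 of these 25 members, or 76.0%, against 5.14% of all 27305 genes with an entry and 7.8% of the 8717 entries of tested genes. The letters were sought on the strand of the gene only. Within 10 bases on either side of the annotated start, such a run was found in 23 of 25 members (92.0%) and in 38.4% of all genes with an entry, so that the wider window separates the members less from other genes. Shown are 10 bases upstream of the gene and the first 20 transcribed bases at the annotated start (1-based coordinates, strand of the gene), and the capitals mark the pyrimidine run that begins at the start or, where no run of 5 bases with a leading C does, the longest run that touches the first 12 transcribed bases. In RPS29 that run is only 2 bases long. The first 4 sequences belong to the members whose ribosome density changed most under trametinib, and their runs begin at the start in RPS18, RPS3A and RPS13 but not in RPS4X.
RPS18, chr6:33272065-33272094, plus strand: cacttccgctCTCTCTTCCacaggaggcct
RPS3A, chr4:151099618-151099647, plus strand: cccacttccgCCCTTTTggctctctgacca
RPS4X, chrX:72277229-72277258, minus strand: ctccagccccaaTTTCTacgcgcaccggaa
RPS13, chr11:17077648-17077677, minus strand: ctctcgctctCCTTTCgttgcctgatcgcc
The next 6 belong to the members whose density change did not pass the test, and 4 of them, RPS12, RPS10, RPS23 and RPS16, carry the run at the start all the same.
RPS15, chr19:1438386-1438415, plus strand: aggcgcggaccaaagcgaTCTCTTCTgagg
RPS12, chr6:132814559-132814588, plus strand: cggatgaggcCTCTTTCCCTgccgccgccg
RPS10, chr6:34426050-34426079, minus strand: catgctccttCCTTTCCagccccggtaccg
RPS23, chr5:82278335-82278364, minus strand: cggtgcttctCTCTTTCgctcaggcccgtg
RPS16, chr19:39435930-39435959, minus strand: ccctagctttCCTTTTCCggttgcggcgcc
RPS26, chr12:56041908-56041937, plus strand: acataacctcgaTTTTCTTCCgccatccgg
The last 3 are the remaining members without the run at the annotated start, and all 3 passed the test.
RPS7, chr2:3575250-3575279, plus strand: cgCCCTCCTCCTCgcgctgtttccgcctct
RPS28, chr19:8321486-8321515, plus strand: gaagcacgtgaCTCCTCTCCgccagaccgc
RPS29, chr14:49598691-49598720, minus strand: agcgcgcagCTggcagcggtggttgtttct

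Library totals ranged from 2276693 to 2845568 counts in input (6 libraries) and from 10127477 to 19181588 in footprints (6 libraries). The lowest raw count of any member was 362 in an input library and 457 in a footprint library, both of RPS10. The epithelial markers EPCAM, CDH1, KRT8, KRT18 and CDX2 were detected in all libraries, whereas PTPRC, a marker of blood cells, stayed at or below 2.16 and PECAM1, a marker of endothelial cells, at or below 2.34 normalized counts. COL1A1, a marker of stromal cells, gave between 36.0 and 90.0 normalized counts. The libraries of DMSO replicate 1 stood apart from the other DMSO libraries. In footprints, counts of replicates 1 and 3 differed with a chi-square per degree of freedom of 133, those of replicates 1 and 2 with 68.4 and those of replicates 2 and 3 with 27.8. This measure grows with depth, and replicate 2 had the fewest footprint counts, 10127477. Results that rest on replicate 1 are therefore also given without both of its libraries. Values below are normalized counts, that is, counts divided by the size factor of the library, listed in the order of replicates 1, 2 and 3. A change is the log2 ratio of trametinib to DMSO, given with its standard error (SE), and a gene is called where the edgeR adjusted p is under 0.05. All 28 members were among the 10663 genes tested, those that reached 10 counts in 3 or more input libraries. Because libraries were scaled to each other, a change common to all mRNAs would not show, and fewer cells cannot be told apart from less RNA per cell.

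In every trametinib library small-subunit mRNAs held a larger share of the input, or a smaller share of the footprints, than in every DMSO library. The share of input counts that fell in the 28 members was 4.44%, 3.94% and 4.29% in DMSO and 4.75%, 4.79% and 4.79% in trametinib. Means were 4.22% ± 0.254 and 4.78% ± 0.0194 (SD, n = 3 each), a ratio of 1.13. In footprints, the members held 1.95%, 1.76% and 1.97% of the counts in DMSO and 1.16%, 1.08% and 1.06% in trametinib. Here the means were 1.90% ± 0.115 and 1.10% ± 0.0499 (SD, n = 3 each), a ratio of 0.580. The groups did not overlap in either assay, and in both the exact permutation test (two-sided, n = 3 against 3) gave p = 0.1, the smallest value that this design allows. The 95% Wilson intervals of single libraries reached at most 0.0277 percentage points to each side in input and 0.00811 in footprints, and they cover counting error only.

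Ribosome density, the ratio of footprints to input, asks how many ribosomes an mRNA carries relative to its abundance. The density of 22 of the 28 members fell under trametinib, and the density of 0 rose. Over all tested genes, 1.0% were called lower and 0.0469% higher, so that the members are 22 of the 107 genes called lower (20.6%). No member was higher at an unadjusted p under 0.05 or by DESeq2 or limma-trend either. All 28 estimates lay below 0, as did 49.9% of the estimates of all genes. The median change of the members was -1.09, against 0.00 over all genes, and single members ranged from -1.44 for RPS18 to -0.33 for RPS26. In 17 members the estimate was below -1, a size reached by 1.64% of all genes. Ranked among all tested genes, 20 members stood in the lowest 2% and 25 in the lowest 5%. Without both libraries of DMSO replicate 1, 21 members were called lower, as FAU lost its call.

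**Figure D1:**
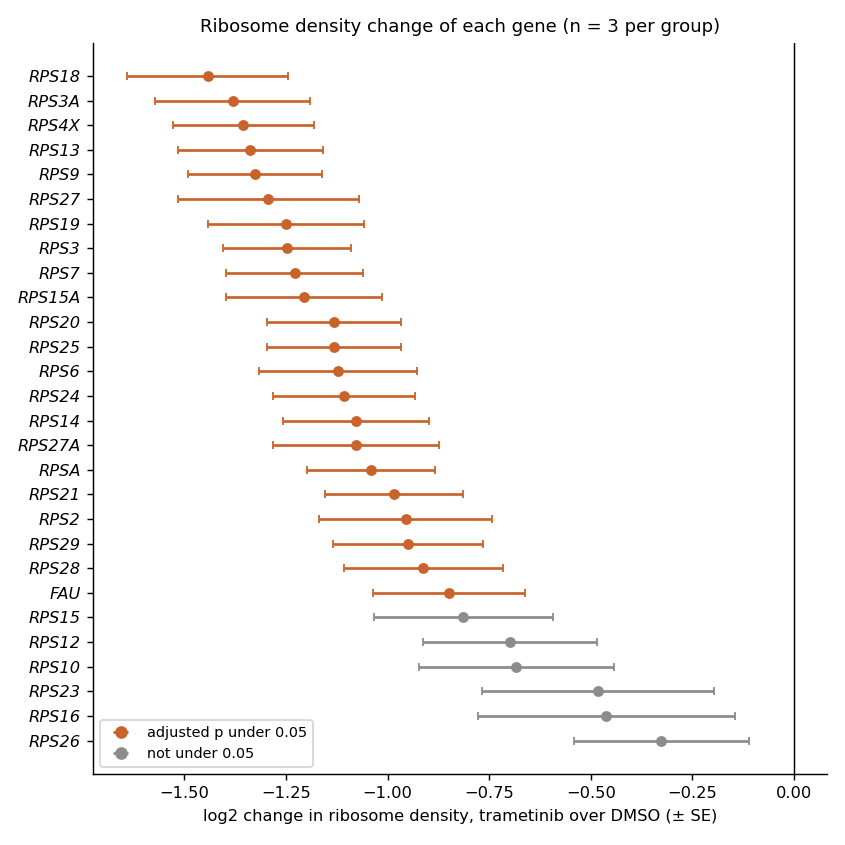
Log2 change in ribosome density, trametinib over DMSO (x axis), of the 28 members (y axis, ordered by the change), with bars for ± SE of the edgeR model over 12 libraries. The 22 members called lower are drawn in orange and run from -1.44 to -0.85, and the 6 grey members at the bottom reach from -0.81 up to -0.33.

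The strongest decrease was that of RPS18, a protein of the head of the subunit that contacts the large subunit. In DMSO input RPS18 gave 11031, 8670.3 and 8963 normalized counts, and in trametinib input 11595, 10599.6 and 10865. Its footprints were 7254, 5285 and 5679 in DMSO and 2732, 2458 and 2537 in trametinib. Input libraries of the treatments overlapped, whereas every trametinib footprint library was below every DMSO one. The footprint-to-input ratio of RPS18 went from 0.636 to 0.234, and its density change was -1.44 (SE 0.20, edgeR adjusted p = 0.00202). RPS3A, a protein of the platform, had 21072, 18633 and 16013 normalized input counts in DMSO and 23099, 23149.7 and 20652 in trametinib. For its footprints the counts were 7623, 6135 and 7069 in DMSO and 3287, 2925 and 3393 in trametinib. As for RPS18, the treatments overlapped in input and were apart in footprints, and the density change of RPS3A was -1.38 (SE 0.19, edgeR adjusted p = 0.00202).

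RPS4X is the X-chromosomal copy of a protein that also has a Y-chromosomal form. Its input gave 13678, 12168 and 11599 normalized counts in DMSO and 15415, 15450.3 and 15250.5 in trametinib, where all libraries were above DMSO. Its footprints gave 8562, 7092 and 8722 in DMSO and 4117, 3615 and 4007 in trametinib, with all trametinib libraries below DMSO. Input and footprints thus moved apart, although the input change of RPS4X alone, 0.30 (SE 0.13, edgeR adjusted p = 0.0869), did not pass the test, and the density change was -1.35 (SE 0.17, edgeR adjusted p = 0.0012). RPS13, a protein of the body of the subunit, showed 8874, 7335 and 6919 normalized input counts in DMSO and 8375, 7210.5 and 8463 in trametinib, which overlapped. Its footprints dropped from 5980.4, 5547 and 5387 to 2286, 2206 and 2468. No member lost a larger part of its footprints, with 41.1% of the DMSO mean left, and the density change was -1.34 (SE 0.18, edgeR adjusted p = 0.00159).

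RPS6, whose phosphorylation by the S6 kinases is a common readout of mTOR and ERK signaling, stood near the middle of the list. Its normalized input counts were 23428, 19060.4 and 17749.9 in DMSO and 23529.8, 23688 and 21626 in trametinib, and its footprints 9569, 7319.7 and 8865 in DMSO and 4714, 4484 and 4329 in trametinib. Input overlapped, footprints did not, and the density of RPS6 changed by -1.12 (SE 0.19, edgeR adjusted p = 0.0078).

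**Figure D2:**
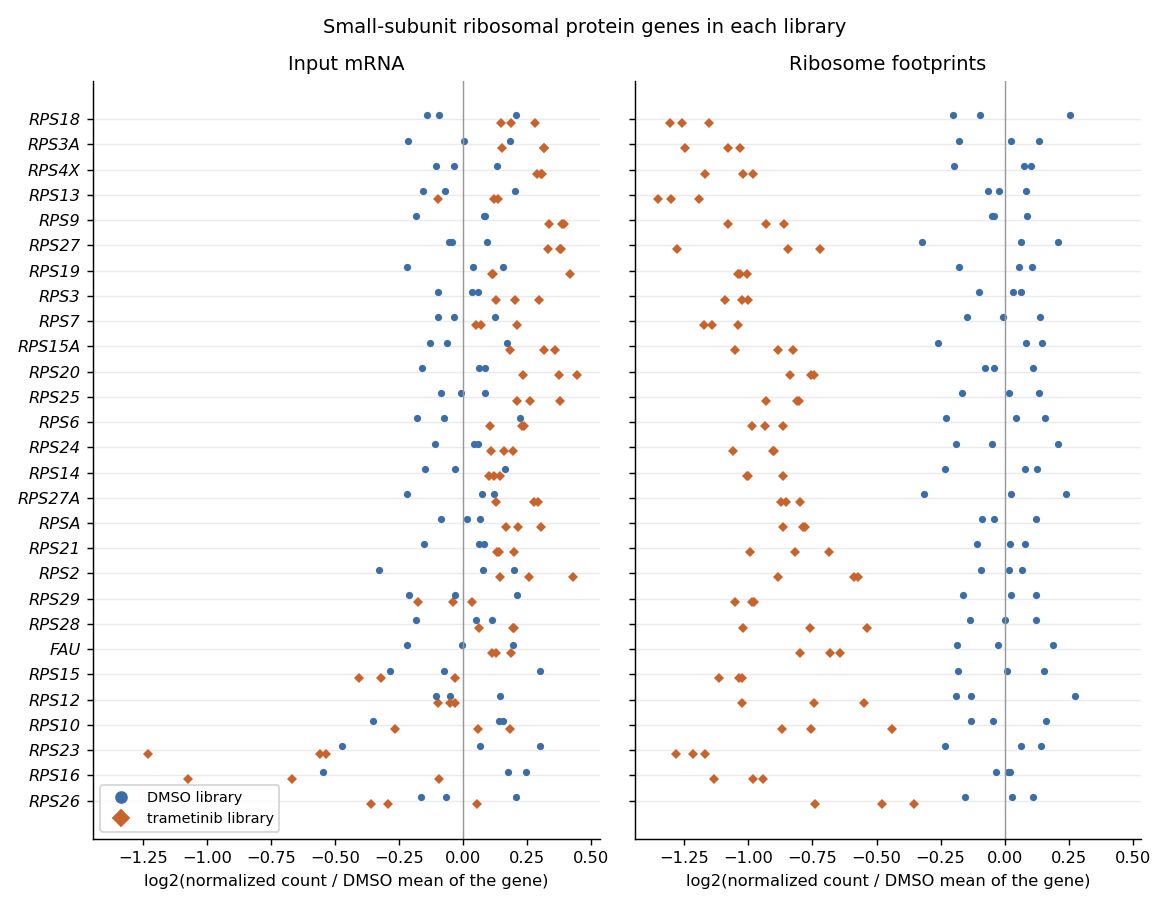
Normalized counts of each member in every library as log2 of the value over the DMSO mean of that gene (x axis), for input mRNA (left) and ribosome footprints (right), with members ordered by the density change (y axis). Blue circles are the 3 DMSO libraries and orange diamonds the 3 trametinib libraries of a member. In footprints all orange points lie left of all blue points in 28 of 28 members, whereas in input the treatments overlap in 16 members.

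The other 17 members called lower for density changed by -1.33 to -0.85, and in all of them footprints were apart between the treatments. Among proteins of the head, RPS19, whose gene is the most often mutated in Diamond-Blackfan anemia, changed by -1.25 (SE 0.19) as its footprints went from 4693 ± 484 to 2305 ± 31.8 normalized counts (SD, n = 3). RPS3, which lies at the entry of the mRNA channel, changed by -1.25 (SE 0.16), with footprints of 10005 ± 585 in DMSO and 4872 ± 156 in trametinib (SD, n = 3). RPS20, a head protein that also binds MDM2, gave -1.13 (SE 0.16) and RPS25, which some viral mRNAs need to recruit ribosomes, -1.13 (SE 0.17). RPS27A, made as a fusion of ubiquitin with a ribosomal protein, gave -1.08 (SE 0.20), RPS29, a small zinc-binding protein, -0.95 (SE 0.18), and RPS28, a protein near the mRNA exit, -0.91 (SE 0.20).

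Among proteins of the body and platform, RPS9 and RPS27 changed by -1.33 (SE 0.17) and -1.29 (SE 0.22). RPS7, a further MDM2-binding protein, changed by -1.23 (SE 0.17), and its footprints went from 7016 ± 699 to 3234 ± 156 normalized counts (SD, n = 3). RPS15A gave -1.21 (SE 0.19) and RPS24, another gene mutated in Diamond-Blackfan anemia, -1.11 (SE 0.18). RPS14, whose loss with one arm of a chromosome marks a form of myelodysplastic syndrome, changed by -1.08 (SE 0.18), with footprints of 4156 ± 542 and 2143 ± 119 normalized counts (SD, n = 3). RPSA and RPS21, which are neighbors in the subunit, gave -1.04 (SE 0.16) and -0.99 (SE 0.17). RPS2, which borders the mRNA entry, changed by -0.96 (SE 0.21, edgeR adjusted p = 0.0471), and FAU by -0.85 (SE 0.19, edgeR adjusted p = 0.0464). RPS2, FAU and RPS28 were close to the threshold, and these 3 calls were lost when libraries were scaled by TMM or by library totals. Over all 22 members the edgeR adjusted p lay between 0.0012 and 0.0471.

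Density changes of the remaining 6 members did not pass the test, and their estimates were the 6 nearest to 0. RPS15, whose tail reaches toward the decoding center, gave 2249.8, 1942 and 2913 normalized input counts in DMSO and 1896, 1788 and 2316 in trametinib. Its footprints were 3427, 3909 and 4322 in DMSO and 1912, 1895 and 1794 in trametinib. The footprints were apart, input overlapped with a lower mean under trametinib, and the density change was -0.81 (SE 0.22, edgeR adjusted p = 0.147). RPS15 was called in addition, as the only one of the 6, by DESeq2 and by edgeR with a block for each dish, that is, for the input and footprint library of one treatment and number. RPS12, a protein of the beak of the head, had 12438, 10889 and 10475 normalized input counts in DMSO and 11022, 10527 and 10880.0 in trametinib. Its footprints were few for its input, at 2011, 1931 and 2668 in DMSO and 1506, 1316 and 1082 in trametinib, and the density change was -0.70 (SE 0.21, edgeR adjusted p = 0.25).

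RPS10, which sits at the mRNA entry, had the lowest counts of all members. The table counts only reads of a single symbol, and only 8.37% of the 30-base windows of the RPS10 coding sequence do not also occur in the readthrough gene RPS10-NUDT3 (Gencode V44), which the table lists as well. RPS10 was thus measured on a small part of its sequence. Its normalized input counts were 1249, 879 and 1234 in DMSO and 1167, 932 and 1273 in trametinib, and its footprints 313, 332 and 384 in DMSO and 203, 188 and 253 in trametinib. Input overlapped, footprints did not, and the density change was -0.68 (SE 0.24, edgeR adjusted p = 0.401).

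RPS23 and RPS16 differed from the other members in their input. RPS23, a protein of the decoding center, gave 7148, 4187 and 6078 normalized input counts in DMSO and 3942, 2478 and 4005 in trametinib. Its footprints were 4957, 3825 and 4696 in DMSO and 1996, 1848 and 1934 in trametinib. RPS23 was the only member whose trametinib libraries all lay below DMSO in input as well as in footprints, and its density change was -0.48 (SE 0.29, edgeR adjusted p = 0.766). RPS16, whose tail touches the tRNA in the P site, had 6227, 3779 and 6546 normalized input counts in DMSO and 3473, 2622 and 5165 in trametinib. Its footprints were 4858, 4677 and 4835 in DMSO and 2493, 2422 and 2182 in trametinib, and its density change was -0.46 (SE 0.32, edgeR adjusted p = 0.822). In both genes, replicate 2 was the lowest input library of either treatment. The coefficient of variation of the 3 input libraries was 25.8% in DMSO and 24.9% in trametinib for RPS23 and 27.4% and 34.5% for RPS16, against medians over the members of 11.8% and 6.09%. Their footprints varied less, by 13.2% and 3.85% for RPS23 and by 2.06% and 6.90% for RPS16.

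RPS26, which lines the mRNA exit channel and contacts the bases before the start codon, changed least. Its normalized input counts were 3522, 3293 and 4264 in DMSO and 3013, 2879.6 and 3838 in trametinib, and its footprints 4469, 3929 and 4728 in DMSO and 3425, 3144 and 2623 in trametinib. The treatments overlapped in input and were apart in footprints, and the density change of RPS26 was -0.33 (SE 0.21, edgeR adjusted p = 0.808). A p above the threshold does not show that these 6 mRNAs kept their density.

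Input was compared to ask whether lower footprints went along with less mRNA. By edgeR, 2 members rose in input, RPS9 and RPS27, and 1 fell, RPS23. Of all tested genes 15.2% were called higher and 16.9% lower, so that the called members, 7.14% and 3.57%, made up smaller shares than the called genes at large. The median input change of the members was 0.18, and 22 estimates lay above 0 and 6 below. In 11 members (39.3%) all trametinib input libraries were above all DMSO libraries, against 23.2% of all genes, and in 1 member they were all below, against 23.3%. RPS9, a protein near the mRNA entry, gave 7522, 6238 and 7492 normalized input counts in DMSO and 8948, 9297 and 9265 in trametinib, a change of 0.37 (SE 0.13, edgeR adjusted p = 0.0468). Its footprints nonetheless went from 4242, 3853 and 3877 to 2095, 2196 and 1889. RPS27, a zinc-binding protein of the platform, gave 3456, 3150.1 and 3119 in DMSO and 4216, 4076 and 4229 in trametinib, a change of 0.36 (SE 0.13, edgeR adjusted p = 0.0465). Footprints of RPS27 went from 1558, 1080.0 and 1409 to 751, 819 and 557 normalized counts. Both genes thus gained mRNA and lost footprints. These 2 calls were at the edge of the threshold and were lost without DMSO input replicate 2, without any single trametinib input replicate or without the filter on low counts, and that of RPS27 also without DMSO input replicate 3. Without DMSO input replicate 1, in contrast, 6 members were called higher, with RPS3A, RPS4X, RPS15A and RPS20 in addition. RPS23, described above, had an input change of -0.74 (SE 0.22, edgeR adjusted p = 0.0198), a call that was lost without trametinib input replicate 2. RPS16 had the next lowest input estimate, -0.56 (SE 0.25, edgeR adjusted p = 0.102), and was called, as 1 of 2 members lower, without DMSO input replicate 2 or trametinib input replicate 3. Input means of the 28 members under trametinib ranged from 59.9% of DMSO for RPS23 to 129% for RPS9, with a median of 113%.

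Footprints fell in all 28 members, of which every one passed the test, compared with 25.6% of all tested genes called lower. In all 28, each trametinib library lay below each DMSO library, which held for 30.3% of all genes, and in 0 they lay above, against 29.3%. The median change was -0.94, from -1.28 for RPS13 and -1.24 for RPS18 to -0.67 for RPS2 and -0.51 for RPS26. Expressed as means, trametinib footprints were 41.1% to 70.0% of DMSO, with a median of 52.1%. The change of RPS26, -0.51 (SE 0.14, edgeR adjusted p = 0.0136), was the weakest and lost its call without trametinib footprint replicate 2 or replicate 3 and when libraries were scaled by their totals. Footprints changed within a narrower range than density, with an SD over the members of 0.18 against 0.29, and the input change had an SD of 0.26. The density change takes in the error of both assays. Its median SE was 0.19, against 0.13 for footprints and 0.14 for input.

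In DMSO most small-subunit mRNAs carried fewer footprints for their input than the typical gene. By edgeR, 18 members (64.3%) were called lower in footprints over input and 2 higher, RPS15 and FAU, where 25.6% of all tested genes were lower and 27.5% higher. The median DMSO density of the members, the log2 ratio of normalized footprints to input, was -0.70, against 0.03 over all genes. This trait was shared by large-subunit genes, of which 31 of 47 were lower and 3 higher, with a median of -0.76. Of 17 other 5′TOP mRNAs, 11 were lower and 1 higher, with a median of -0.82. A block by replicate number takes input and footprints of one number as one DMSO dish. With this block 23 members were lower and 2 higher, and RPS21, RPS23, RPS25, RPS27A and RPS28 were called in addition. Without both libraries of DMSO replicate 1, RPS7 and RPS13 were no longer called, and 18 of the 20 calls remained. The ratio of mean footprints to mean input spread over a wide range in DMSO, from 0.123 in RPS2 to 1.75 in FAU, with a median of 0.614, and was below 1 in 25 members.

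RPS2 gave 32233, 24293 and 35083 normalized input counts in DMSO but only 3818, 3535 and 3956 footprints, a DMSO density of -3.02 (SE 0.20, edgeR adjusted p = 1.73e-05). In trametinib its input was 33775, 36513 and 41095, overlapping DMSO, and its footprints were 2536, 2508 and 2044, all below DMSO. RPSA, which is also known as a laminin receptor, gave 23240.0, 21659.6 and 24104 normalized input counts and 3850.1, 3729 and 4311 footprints in DMSO, a DMSO density of -2.54 (SE 0.17, edgeR adjusted p = 1.73e-05). Its trametinib values were 26680.1, 28425 and 25804 in input, all above DMSO, and 2308, 2173 and 2297 in footprints, all below. In Gencode V44, 14.0% of the 30-base windows of RPSA occur in no other gene, and its near copy RPSA2 was not among the symbols of the table.

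At the other end stood FAU, made as a fusion of a ubiquitin-like protein with a ribosomal protein. FAU gave 1915, 1646 and 2194 normalized input counts and 3832, 3303 and 2953 footprints in DMSO, a DMSO density of 0.81 (SE 0.18, edgeR adjusted p = 0.00416). Under trametinib its input was 2075, 2099.8 and 2185, overlapping DMSO, and its footprints were 2099, 2155 and 1934, all below. RPS15 was similar, with a DMSO density of 0.71 (SE 0.19, edgeR adjusted p = 0.0116). Under trametinib the order changed little, and the ratio of all 28 members was below 1, from 0.0636 in RPS2 to 0.973 in FAU, with a median of 0.258. In trametinib 25 members (89.3%) were called lower in footprints over input, against 35.5% of all genes, and all 28 estimates were below 0, so that 0 were called higher by edgeR, against 37.0%. FAU, RPS15 and RPS26 were the 3 members not called there, with estimates of -0.04, -0.10 and -0.08. Of the 47 large-subunit genes, 44 were called lower in trametinib and 1 higher. The trametinib ratio was 36.8% of the DMSO ratio in RPS18 and 79.7% in RPS26, with a median of 46.9% over the members.

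**Figure D3:**
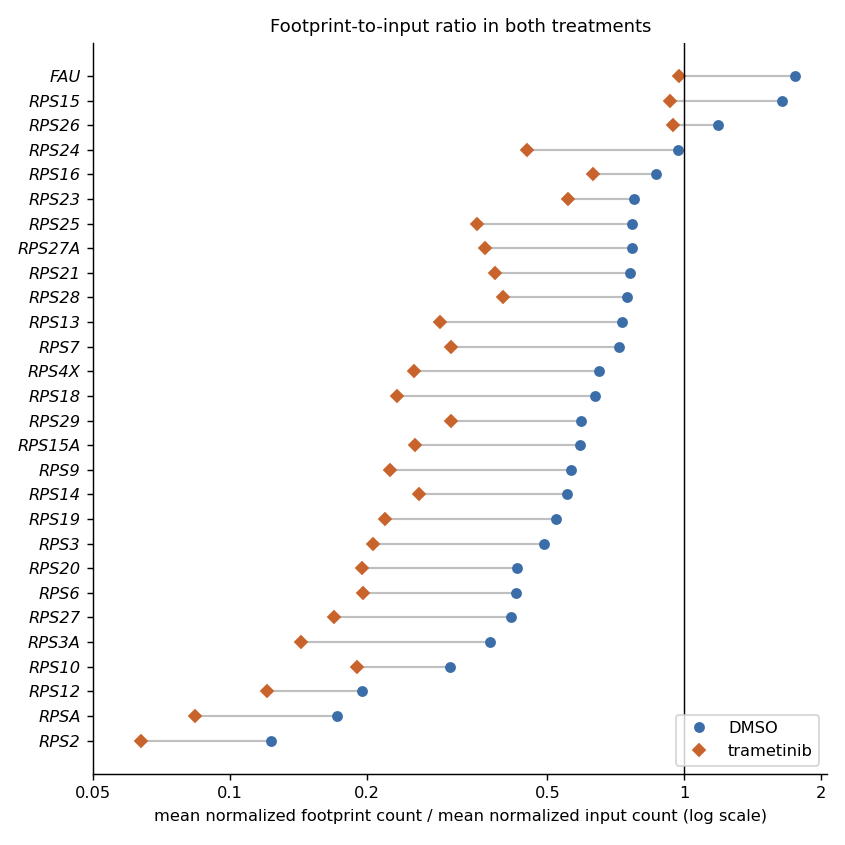
Mean normalized footprint count over mean normalized input count (x axis, log scale) of the 28 members in DMSO (blue circles) and trametinib (orange diamonds), ordered by the DMSO ratio (y axis). Each grey line joins the 2 treatments of 1 gene, and every line runs to the left, from a DMSO range of 0.123 to 1.75 to a trametinib range of 0.0636 to 0.973.

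The proteins are needed in equal numbers per subunit, so their levels were also compared per length, as normalized counts per kb of coding sequence. In DMSO footprints the median over the members was 9736 per kb, the highest value was 20956 ± 2979.6 per kb (SD, n = 3) in RPS24, and the lowest was 693 ± 74.1 per kb in RPS10, which was counted on part of its sequence. Leaving RPS10 aside, footprints per kb ranged 5.83-fold, down to 3594 ± 518 per kb in RPS15A, of whose 30-base windows 49.0% occur in no other gene. Input per kb ranged 7.22-fold without RPS10, from 4808 ± 686 per kb in FAU to 34739.9 ± 6361 per kb in RPS2. FAU and RPS2, the extremes of input per kb, gave 8428 and 4289 footprints per kb in DMSO, so that the order of these 2 genes turned around. Across the 28 members the coefficient of variation of footprints per kb was 45.4% in DMSO and 45.7% in trametinib, where the median was 4845 per kb.

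Place in the subunit, coding length and the start of the mRNA were set beside the density change as descriptions, with no test. Of the 12 proteins of the head, 8 were called lower, with a median change of -1.01. Of the 16 proteins of the body and platform, 14 were called lower, with a median of -1.11. Coding length, from 168 bases in RPS29 to 885 in RPSA, gave Pearson's r = -0.28 and Spearman's rho = -0.33 with the density change across the 28 genes. Of the 19 members with the pyrimidine run at the annotated start, 15 were called lower, with a median of -1.11, and of the 6 with an entry but no run there, 4 were called lower, with a median of -0.93. Those 4 are RPS4X, RPS7, RPS28 and RPS29, and the estimates of RPS4X and RPS7 were below -1. The length of the run, from 6 bases in RPS13, RPS25 and RPS27A to 14 in RPS24, gave r = -0.06 and rho = 0.05 across the 19 members. These genes share all 12 libraries, so the points are not independent.

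Proteins of the large subunit, which join the small subunit on the mRNA and whose mRNAs are of the same class, moved alongside. Of 47 genes, 40 were called lower for density, against 1.0% of all tested genes. Their median was -1.07, with a range from -1.59 for RPL30 to -0.39 for RPL28. In input 5 of the 47 rose and 0 fell, where 15.2% of all genes were called higher and 16.9% lower. At an unadjusted p under 0.05 and by DESeq2 or limma-trend, 0 of the 47 fell in input either. In footprints 46 fell, against 25.6% of all genes. The median of the small subunit was -1.09 and its range -1.44 to -0.33, so that the ranges overlapped almost fully, and no test of a difference between the subunits was made. Among 17 further 5′TOP mRNAs, mostly elongation and initiation factors, 11 were called lower for density, with a median of -0.94, from -2.06 for EEF1G to 0.24 for PABPC1.

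Factors that assemble the small subunit took another course. The pyrimidine run at the annotated start was present in 1 of 19 of them with an entry. By edgeR, 0 of 20 were called for density, which is near the share of all tested genes, 1.0% lower and 0.0469% higher. At an unadjusted p under 0.05 there were 3, and 1 was called lower by DESeq2 and 0 by limma-trend. The median density change was -0.05, from -0.76 for NOB1 to 0.63 for TSR2. In input 15 of the 20 fell, against 16.9% of all genes, with a median of -0.76 and the lowest estimate, -1.49, in RIOK1. In footprints 18 fell, against 25.6% of all genes, with a median of -0.66. Median footprint changes were thus -0.66 for the assembly factors and -0.94 for the proteins they assemble, beside input medians of -0.76 and 0.18. Among 10 regulators of 5′TOP translation and S6 kinases, 0 were called for density by edgeR, DESeq2 or limma-trend, and 0 had an unadjusted p under 0.05. The edgeR count is again near the share of all tested genes. In input 2 of the 10 fell, against 16.9% of all genes, the translational repressor EIF4EBP1 with a change of -1.84 and the kinase MTOR with -0.49. In footprints 4 of the 10 fell, EIF4EBP1 with a change of -1.79, LARP1B with -0.75, MTOR with -0.43 and the S6 kinase RPS6KB2 with -0.39, and 1 rose, the S6 kinase RPS6KB1 with 0.33, where 25.6% of all genes were called lower and 23.8% higher. LARP1, the repressor of the 5′TOP class, changed by 0.06 in footprints (SE 0.17, edgeR adjusted p = 0.807). Its input change was -0.40 (SE 0.16, edgeR adjusted p = 0.0697). Its density change, 0.45 (SE 0.24, edgeR adjusted p = 0.707), was the highest estimate of the 10 and was not called.

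**Figure D4:**
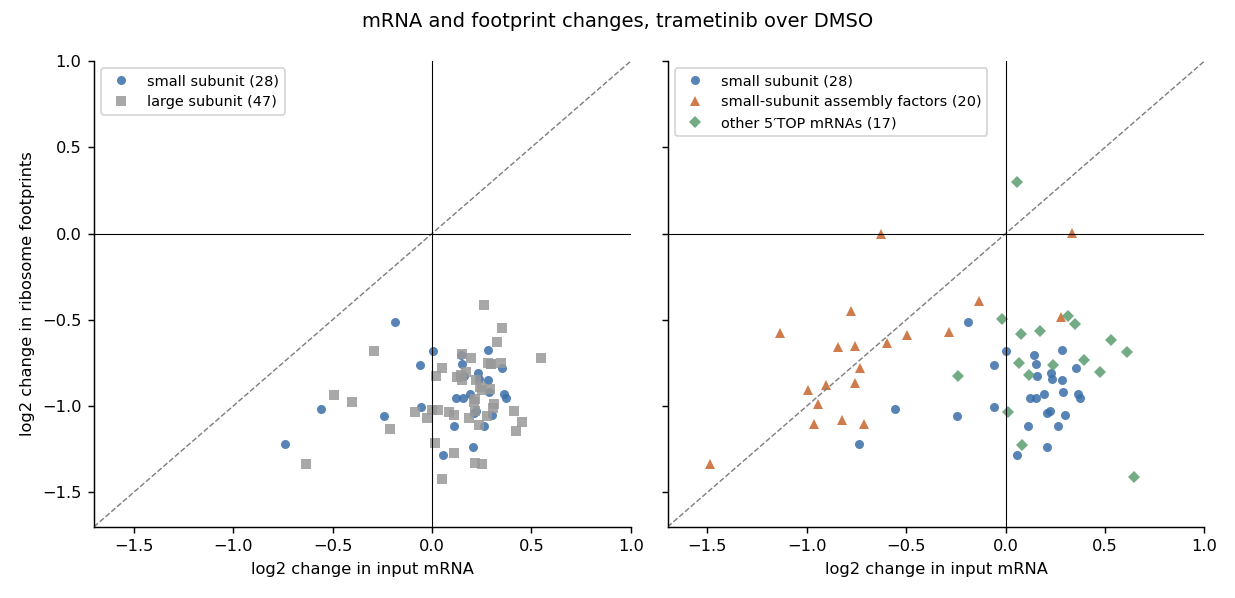
Log2 change in input mRNA (x axis) against log2 change in ribosome footprints (y axis), trametinib over DMSO, with 1 point per gene, for small and large subunit proteins (left) and for the small subunit with its assembly factors and other 5′TOP mRNAs (right). On the dashed diagonal both change alike. The 28 small-subunit genes sit below it, at footprint changes between -1.28 and -0.51, while the 20 assembly factors lie around it.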

How the data were processed

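Ribo-seq was available for 12 libraries, input and footprints of 3 DMSO and 3 trametinib dishes, and the labels gave groups and replicate numbers. Per the study's methods, the authors removed adapters with the FASTX-toolkit, filtered out rRNA and tRNA reads with Bowtie 1.2.2, mapped the rest to the basic set of Gencode V38 and counted reads of 25 to 35 nt in open reading frames of a single symbol. Reads shared between symbols were thus lost, which can lower RPS10 and RPS15A. RPSA shares windows only with RPSA2, which was not among the symbols. In DMSO input RPSA gave 25990 normalized counts per kb, beside a median of 16695 over the members. Whether RPSA lost reads was not tested. The deposited table holds raw counts, a normalized signal (counts divided by size factors), and log2 fold changes and adjusted p-values of the authors from DESeq2 1.46.0; the last 2 kinds were not used, and 0 columns of single libraries were left unused.

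Genes that reached 10 counts in 3 or more input libraries were tested on the deposited counts with edgeR 4.0.16 in R 4.3.3 (glmQLFit and glmQLFTest, Benjamini-Hochberg over 10663 genes). Median-of-ratios size factors, recomputed and equal to those of the authors in 12 of 12 libraries, served as offsets. Density was the interaction of assay and treatment over 12 libraries. Input and footprint changes used the 6 libraries of each assay, and footprints over input within one treatment the 6 libraries of that treatment. SE was the absolute log2 change divided by the square root of F. The edgeR fits of density, input and footprint changes and of DMSO density were first run on simulated counts. The other steps, the alternatives among them, were not simulated. Coding lengths and shared windows came from Gencode V44, not the release of the authors. Alternatives were TMM, library totals, size factors within each assay, other filters, DESeq2 1.42.0, limma-trend (limma 3.58.1, prior count 2), a replicate block and leaving out libraries.

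Input and footprint deviations of the same number correlated at 0.816, 0.181 and 0.343 in DMSO, so that the numbers pair these libraries, and at 0.141, 0.0803 and -0.122 in trametinib, over 7669 genes. DMSO and trametinib deviations of one number correlated at 0.117, 0.133 and 0.294 in footprints and at 0.0680, 0.0484 and 0.334 in input. Libraries of different numbers were not compared, so these values alone do not show which libraries are paired. The methods state that both RNAs came from one lysate.

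The members and the lists were chosen with earlier results of these data known. Values in every library were given by rule for RPS6, the 4 lowest and 4 highest density changes, members not called for density, and the 2 lowest and 2 highest estimates of the other comparisons. The exclusion of both libraries of DMSO replicate 1 was added after the data were seen.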

Additional observations from a re-analysis of the deposited data

How the results depend on the processing

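No density or footprint change of a member turned its direction under any alternative, and 1619 of 1736 member values kept direction and call, while 79 lost a call, 30 gained one and 8 reversed. Density calls numbered 19 with TMM or library totals, 23 with DESeq2, 22 with limma-trend, the other filters or size factors within each assay, 23 with a replicate block by dish, which added RPS15, and 21 by number, which lost FAU. Leaving out 1 library at a time gave 17 to 23 calls with medians of -1.19 to -1.03, and RPS2, RPS27A, RPS28, RPS29 and FAU were the calls lost. With library totals the median of all genes was 0.18 for density and 0.16 for footprints, in place of 0.00 and -0.014, and the footprint median of the members was -0.76. Over all genes they called 3570 higher and 1951 lower in footprints in place of 2537 and 2731, 27 and 78 for density in place of 5 and 107, and 2260 and 3308 for DMSO density in place of 2936 and 2734. When 1 library was left out, 27 to 28 members were called lower in footprints and 14 to 17, in place of 18, in DMSO density. Input rested on few calls: 1 higher with the filter on either kind of library, 0 higher and 2 lower without a filter, 3 higher and 2 lower with the replicate block, which added RPS20 and RPS16, and 0 to 6 higher and 0 to 2 lower when 1 library was left out. Reversed input values were those of RPS10, at -0.14 without DMSO input replicate 2, -0.03 without trametinib input replicate 1 and -0.10 without trametinib input replicate 3, of RPS12, at 0.017, and RPS29, at 0.062, without DMSO input replicate 1, and of RPS13, at -0.018 without DMSO input replicate 3. Over all input libraries left out in turn, RPS10 ranged from -0.14 to 0.12, RPS12 from -0.11 to 0.017, RPS13 from -0.018 to 0.17 and RPS29 from -0.15 to 0.062. In DMSO density RPS24 reversed to 0.012 without both libraries of DMSO replicate 1 and to 0.049 without DMSO footprint replicate 2, in a range from -0.16 to 0.049. None of these 8 values passed the test, and the cause was not tested. Differences of the shares stayed at 0.412 to 0.659 percentage points in input and -0.862 to -0.758 in footprints. The paired fit changed no other call of a member than those named here and beside the DMSO density.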
